A study of Mus musculus with 6 samples.

Results

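The dystrophin-sarcoglycan complex was examined in left ventricles of adult mice exposed to caffeine in utero, through 8 of its genes, Sspn, Dmd, Sgca, Sgcb, Sgcd, Dag1, Dtna and Utrn. The 8 were taken by their mouse symbols from the 43629 Ensembl genes counted in each heart, matched by identifier to the GENCODE annotation of GRCm38, and all 8 passed the filter on low counts. RNA came from left ventricles of CD-1 males, an outbred stock, at 1 year of age, with 3 hearts in the vehicle group and 3 in the caffeine group. Dams of the vehicle group were injected intraperitoneally with normal saline once a day, and dams of the caffeine group with 20 mg/kg caffeine, from E6.5 to 9.5 (another label field ends the exposure at E10.5). The labels name no transgene or deletion in either group, and the treatment compared was given before birth. The study also examined adult offspring of this exposure by echocardiography and after dobutamine injection. The sources do not say whether the sequenced animals were among them. The sources do not tie hearts to dams, so p-values measure the spread between these hearts, which may share a litter.

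Dystrophin is a long rod that links actin beneath the muscle cell membrane to dystroglycan, a receptor that crosses the membrane and binds laminin outside. The sarcoglycans and sarcospan form a subcomplex that sits beside dystroglycan and holds it to the membrane, while dystrobrevin and the syntrophins gather signaling proteins on the inner side. Utrophin is the close relative of dystrophin and can take its place. Loss of dystrophin, of alpha-, beta- or delta-sarcoglycan causes muscular dystrophy, in several forms with cardiomyopathy, which is why the complex is of interest in a heart.

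No gene of the complex was altered past the thresholds in the caffeine-treated hearts. The largest differences were a lower Sspn, at 0.719 times the vehicle level, and a higher Sgcb and Sgca, at 1.44 and 1.28 times. Dmd, Sgcd, Dag1, Dtna and Utrn had fold changes between 0.893 and 1.01. A larger log2 fold change in either direction was seen in 5.92% of all tested genes for Sgcb, in 7.29% for Sspn and in 13.4% for Sgca. With the quasi-likelihood test of edgeR, 0 of the 8 passed an adjusted p below 0.05 with a fold change above 1.5, a pair of limits that 0.107% of the 13092 tested genes met, and with edgeR's exact test 0 of the 8 passed, against 0.726% of all genes. Scaling by library size only, which moved the median of all genes to −0.084, turned the 11 higher and 3 lower calls over all genes into 12 and 15, none of them a member. At an unadjusted p below 0.05 in the quasi-likelihood test there were 3 of 8, namely Sgca, Sspn and Sgcb, where 8.82% of all genes were below it. The 8 were chosen with earlier results of these data known, so this count is not independent evidence about the complex. The median log2 fold change of the 8 was −0.043, and that of all tested genes was 0.001. The hearts of the groups did not overlap for 1 member, Sgca, which lay higher in every caffeine-treated heart. Over all tested genes 7.11% lay higher and 7.12% lay lower in every caffeine-treated heart.

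**Figure D1:**
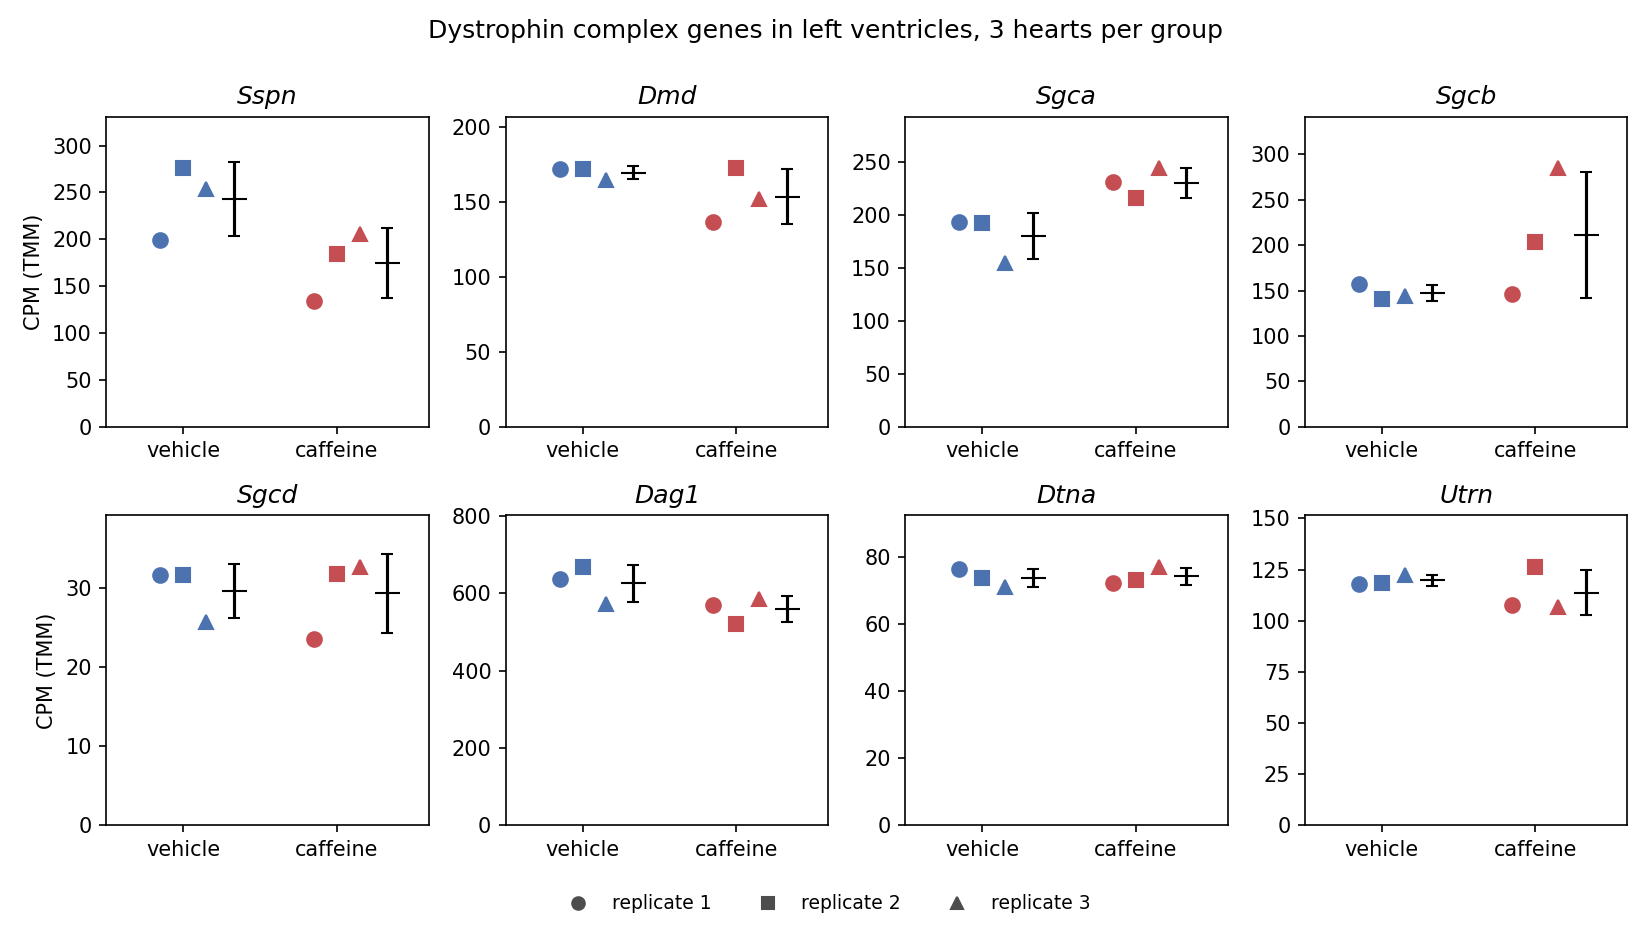
Each panel plots 1 gene of the complex in CPM on a linear axis from 0, with vehicle hearts in blue, caffeine hearts in red, a marker shape for each replicate number, and the mean with its SD (n = 3) as a black bar. Sgca is the panel in which all 3 caffeine hearts (216 to 244) lie above all 3 vehicle hearts (155 to 194), and Sgcb is the panel with the widest spread among caffeine hearts (146 to 285).

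The libraries held between 7613011 and 10483101 counts, and the 3 caffeine libraries were the shallower ones. Members had between 169 (Sgcd) and 7053 (Dag1) counts in a heart. Levels below are in CPM, the counts of a gene as a share of the effective library size, which edgeR's TMM factors adjust for a few abundant genes. Heart muscle markers (Myh6, Actc1, Tnnt2, Tnni3, Ryr2, Myl2) summed to between 43300 and 52100 CPM in every heart. Markers of skeletal muscle, where the complex is also abundant, summed to at most 0.782 CPM, with Myh1 and Myh4 at 0 in all 6 hearts. In bulk tissue fewer cells of a type and less RNA per cell cannot be told apart.

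Sspn encodes sarcospan, a small protein that spans the membrane several times and strengthens the sarcoglycan subcomplex, and is on chromosome 6 of GRCm38 from 145931641 to 145965223 (ENSMUSG00000030255). It measured 199.7, 276 and 253 CPM in the vehicle hearts (replicates 1 to 3) and 134, 184 and 206 CPM in the caffeine hearts. Caffeine replicate 1 was the lowest of all, and caffeine replicate 3 lay just above vehicle replicate 1, so the groups overlapped by that single pair. The means were 243 ± 39.1 (SD, n = 3) and 175 ± 37.0 CPM (SD, n = 3). The log2 fold change was −0.48 (standard error 0.158, 95% interval −0.82 to −0.13, edgeR quasi-likelihood adjusted p = 0.366). In the exact permutation test, two-sided, p was 0.2, where 0.1 is the smallest that 3 hearts against 3 allow. Sspn stands in the study's own list of altered genes, which was drawn from these same hearts, so its direction here is not independent evidence. The study's methods set an adjusted p below 0.05 and a fold change above 1.5 for that list. Here Sspn met neither limit in the quasi-likelihood fit, nor in edgeR's exact test (adjusted p = 0.209). Why the calls differ was not tested.

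An antisense gene, Sspnos, shares 69 bases of exon with Sspn, or 1.38% of the exon bases of Sspn. It had between 3 and 26 counts in a heart against 955 to 2915 for Sspn. The sources used here do not give the strand setting of the counting. Without strand, reads from the shared bases cannot be assigned to either gene.

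Sgca encodes alpha-sarcoglycan, a single-pass glycoprotein made almost only in striated muscle, and is on chromosome 11 from 94962791 to 94976327 (ENSMUSG00000001508). The vehicle hearts measured 194, 192 and 155 CPM and the caffeine hearts 231, 216 and 244 CPM. Every caffeine heart was above every vehicle heart, and vehicle replicate 3 was the lowest. The means were 180 ± 22.1 (SD, n = 3) and 230 ± 14.2 CPM (SD, n = 3), a log2 fold change of 0.35 (standard error 0.103, 95% interval 0.13 to 0.58, edgeR quasi-likelihood adjusted p = 0.302). This was the smallest adjusted p among the members, and the exact permutation p was 0.1. The interval reaches up to 1.5-fold.

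Sgcb encodes beta-sarcoglycan, which forms the core of the sarcoglycan subcomplex together with delta-sarcoglycan, and is on chromosome 5 from 73632749 to 73647790 (ENSMUSG00000029156). The vehicle hearts were tight, at 157, 140.3 and 144 CPM, while the caffeine hearts measured 146, 203 and 285 CPM. Caffeine replicate 1 fell inside the vehicle range and the other two caffeine hearts lay above it. The coefficient of variation was 5.83% in the vehicle group and 32.9% in the caffeine group. The log2 fold change was 0.52 (standard error 0.187, 95% interval 0.11 to 0.94, edgeR quasi-likelihood adjusted p = 0.413), and the exact permutation p was 0.2. Without caffeine replicate 3 the log2 fold change was 0.25, and without caffeine replicate 1 it was 0.73, so these hearts set its size.

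Sgcd, which encodes delta-sarcoglycan, the partner of beta-sarcoglycan, lies on chromosome 11 from 46896253 to 47988969 (ENSMUSG00000020354). It measured 31.6, 31.7 and 25.7 CPM in the vehicle hearts and 23.7, 31.8 and 32.7 CPM in the caffeine hearts. The lowest and the highest heart were both in the caffeine group, and the groups overlapped throughout. The log2 fold change was −0.011 (95% interval −0.33 to 0.30, edgeR quasi-likelihood adjusted p = 0.992), and its sign changed when single hearts were left out.

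The members with the smallest p-values were Sspn, Sgca and Sgcb, and their promoter windows are shown with that of Dmd, the backbone of the complex, so that their start sites can be compared. Windows are from RefSeq on GRCm38.p6 and hold 250 bases before a start site and 50 after it, read 5′ to 3′ on the strand of the gene. Of the members other than Dtna, all 7 had a window. Sspn, Dmd and Dag1 have 2 each, for separate start sites whose reads were counted together, and for Dmd only the first is shown. Capitals mark matches, on either strand, to an E-box, an M-CAT element, a TATA box, a CArG box or a MEF2 site.
Sspn, first start (chr6:145931623-145931922, plus strand): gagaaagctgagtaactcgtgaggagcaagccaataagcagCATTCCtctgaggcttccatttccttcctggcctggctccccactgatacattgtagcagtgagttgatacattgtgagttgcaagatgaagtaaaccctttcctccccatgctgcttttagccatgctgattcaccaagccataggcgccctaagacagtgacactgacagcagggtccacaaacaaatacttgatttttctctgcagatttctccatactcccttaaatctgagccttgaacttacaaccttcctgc
Sspn, second start (chr6:145933872-145934171, plus strand): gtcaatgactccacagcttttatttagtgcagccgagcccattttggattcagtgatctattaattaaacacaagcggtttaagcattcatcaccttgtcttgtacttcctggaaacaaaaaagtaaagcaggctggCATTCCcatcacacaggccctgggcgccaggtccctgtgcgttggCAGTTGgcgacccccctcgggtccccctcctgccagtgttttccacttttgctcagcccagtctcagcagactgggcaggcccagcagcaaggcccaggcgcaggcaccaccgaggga
Sgca (chr11:94976278-94976577, minus strand): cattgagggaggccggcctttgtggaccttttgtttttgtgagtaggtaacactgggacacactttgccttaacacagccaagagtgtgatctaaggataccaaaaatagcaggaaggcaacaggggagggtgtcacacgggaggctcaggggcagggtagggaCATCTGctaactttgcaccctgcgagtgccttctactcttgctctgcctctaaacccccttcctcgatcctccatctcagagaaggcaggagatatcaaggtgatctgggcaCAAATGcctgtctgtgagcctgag
Sgcb (chr5:73647688-73647987, minus strand): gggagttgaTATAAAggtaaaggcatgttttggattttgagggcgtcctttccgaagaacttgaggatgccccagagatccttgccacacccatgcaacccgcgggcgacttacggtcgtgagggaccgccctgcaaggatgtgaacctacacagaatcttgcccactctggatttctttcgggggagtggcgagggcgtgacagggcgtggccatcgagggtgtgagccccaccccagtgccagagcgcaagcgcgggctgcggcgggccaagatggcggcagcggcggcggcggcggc
Dmd, first start (chrX:82948620-82948919, plus strand): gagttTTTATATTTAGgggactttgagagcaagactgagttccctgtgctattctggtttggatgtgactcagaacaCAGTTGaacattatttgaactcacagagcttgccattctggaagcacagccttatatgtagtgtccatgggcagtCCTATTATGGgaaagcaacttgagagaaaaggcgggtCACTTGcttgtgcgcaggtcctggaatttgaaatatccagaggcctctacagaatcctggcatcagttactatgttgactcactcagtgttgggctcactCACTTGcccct

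The M-CAT element was searched as CATTCC, the sequence read by TEAD factors, and each Sspn window held 1 match, while the second also held 1 E-box. The E-box was searched as CANNTG, the sequence read by basic helix-loop-helix factors such as MyoD, and the Sgca window held 2. The Sgcb window held no E-box and 1 match to the TATA box, searched as TATAAA, far from the start and in GC-rich surroundings (62.7% G and C). The first Dmd window was the one of these with a CArG box, the sequence read by serum response factor, and it also held a MEF2 site, which overlapped its TATA match, and 3 E-boxes. The second Dmd window, not shown, held no match to any of the 5 motifs. Over all 32851 windows of this length in the table, 72.3% held an E-box, 14.7% an M-CAT element, 13.6% a TATA box, 1.63% a CArG box and 3.19% a MEF2 site. These matches describe the windows only, and no motif of the 5 was found in Sspn, Sgca and Sgcb alike.

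Dmd, which encodes dystrophin and is among the longest genes of the genome, lies on chromosome X from 82948870 to 85206141 (ENSMUSG00000045103). It measured 172, 172 and 164 CPM in the vehicle hearts and 136, 172 and 152 CPM in the caffeine hearts. The vehicle hearts were almost equal, caffeine replicate 2 matched the highest of them, and caffeine replicates 1 and 3 were below all of them. A log2 fold change of −0.14 resulted (95% interval −0.36 to 0.072, edgeR quasi-likelihood adjusted p = 0.733). Without caffeine replicate 1 it was −0.064, and without caffeine replicate 2 it was −0.23, so its size depended on these hearts.

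Utrn, which encodes utrophin, lies on chromosome 10 from 12382188 to 12869365 (ENSMUSG00000019820). The vehicle hearts measured 118, 119 and 123 CPM and the caffeine hearts 108, 126 and 107 CPM. Caffeine replicate 2 was the highest of the 6 hearts and the other two caffeine hearts were the lowest, the same split as for Dmd. For Utrn the log2 fold change was −0.075 (95% interval −0.28 to 0.13, edgeR quasi-likelihood adjusted p = 0.881). The estimate for Utrn, whose protein can replace dystrophin, was thus slightly below 0, with an interval that includes 0. With single hearts left out it ran from −0.16 (without caffeine replicate 2) to −0.031 (without caffeine replicate 3).

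Dag1, which encodes both chains of dystroglycan, lies on chromosome 9 from 108204634 to 108263958 (ENSMUSG00000039952). It measured 635, 667 and 573 CPM in the vehicle hearts and 569.9, 520.3 and 585 CPM in the caffeine hearts. Caffeine replicates 1 and 2 were below every vehicle heart, and replicate 3 was above vehicle replicate 3. Its log2 fold change was −0.16 (95% interval −0.36 to 0.036, edgeR quasi-likelihood adjusted p = 0.656).

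Dtna, which encodes alpha-dystrobrevin, a relative of dystrophin that binds it directly, lies on chromosome 18 from 23415135 to 23659715 (ENSMUSG00000024302). It varied little over the 6 hearts, at 76.7, 73.8 and 71.1 CPM in the vehicle hearts and 72.5, 73.4 and 77.2 CPM in the caffeine hearts. The groups covered the same range, with coefficients of variation of 3.77% and 3.33%. Caffeine and vehicle differed by 0.009 in log2 (95% interval −0.18 to 0.19, edgeR quasi-likelihood adjusted p = 0.987), and the sign of this value changed with scaling by library size only (−0.073).

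**Figure D2:**
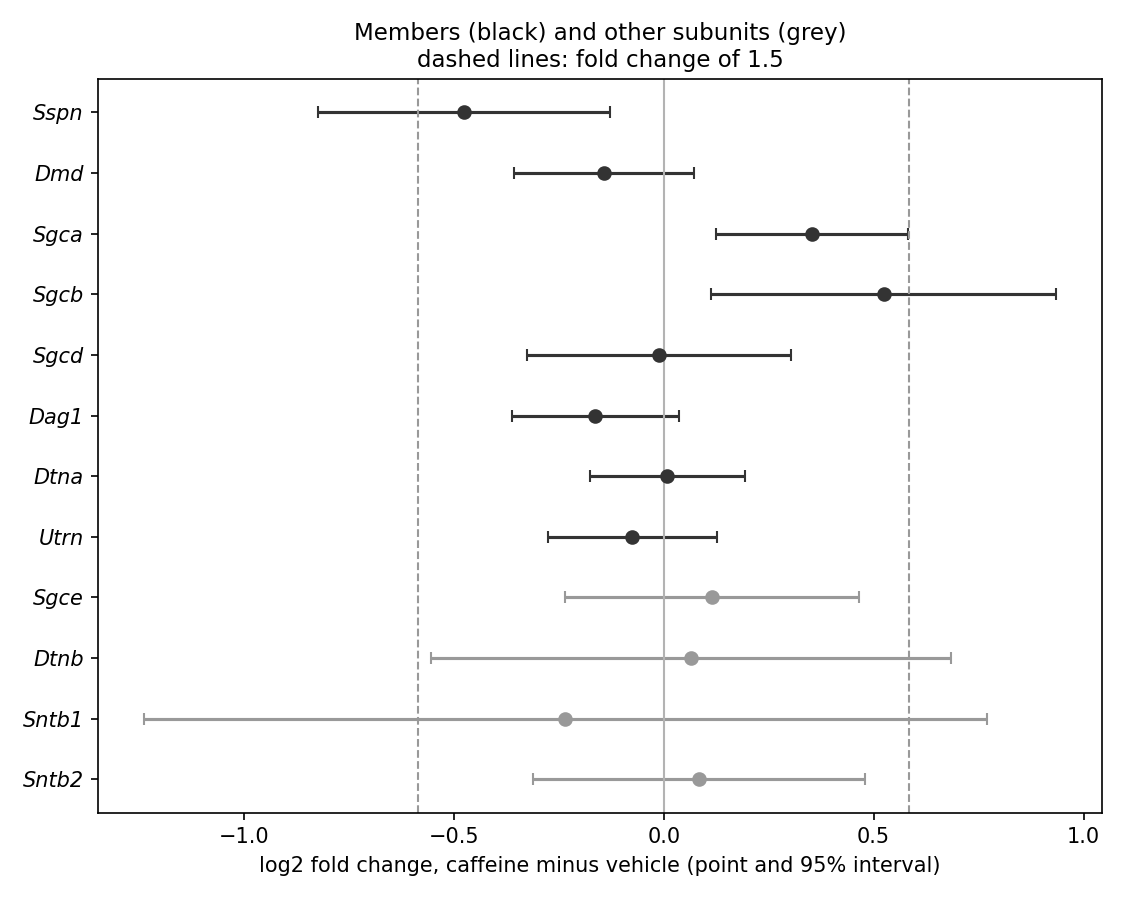
Points are log2 fold changes (caffeine minus vehicle) from edgeR's quasi-likelihood fit of 3 hearts per group, and bars their 95% intervals without correction for the number of genes, for the 8 members (black) and 4 other subunits (grey). The intervals of Sspn, Sgca and Sgcb lie off 0, and those of Sspn and Sgcb alone among the members cross the dashed lines at a fold change of 1.5.

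Levels were compared between members per kilobase of exon. Over the 6 hearts Sgca was the highest at 118 ± 18.5 CPM per kilobase (SD, n = 6), followed by Dag1 at 93.1 ± 8.20. Sgcb (44.2 ± 14.0) and Sspn (41.8 ± 10.1) came next, and Utrn (6.82 ± 0.460), Dmd (6.78 ± 0.615), Dtna (4.38 ± 0.140) and Sgcd (3.58 ± 0.465) were far lower. The ranges over all 6 hearts of Sgca and Dag1 overlapped, as did those of Sgcb and Sspn and those of Utrn and Dmd. The order within each of these pairs is thus not set over both groups together. In the caffeine hearts alone, Sgca (124 to 141) lay above Dag1 (81.9 to 92.0). In the vehicle hearts alone, Sspn (40.0 to 55.2) lay above Sgcb (34.6 to 38.7). Sspn was above Sgcb in the vehicle means (48.6 and 36.3) and below it in the caffeine means (34.9 and 52.2). The exons of all transcripts together are much longer than any single transcript for Dmd, Dtna and Sgcd, and with the longest transcript as the length Dtna (11.8) came before Dmd (10.8), Utrn (9.42) and Sgcd (6.64).

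A ratio of members within a heart does not depend on the scaling factor of its library, but it can vary with a trend over gene length (below). The ratio of Sgca to Dmd was 1.13, 1.12 and 0.941 in the vehicle hearts and 1.69, 1.25 and 1.61 in the caffeine hearts, a difference of 0.51 in mean log2 ratio (pooled SD 0.195, exact permutation p = 0.1). The ratio of Sgcb to Dmd was 0.912, 0.817 and 0.879 in the vehicle hearts and 1.07, 1.18 and 1.88 in the caffeine hearts, a difference of 0.62 (pooled SD 0.311, exact permutation p = 0.1) that came to 0.37 without caffeine replicate 3. In both ratios every caffeine heart lay above every vehicle heart. Of the 7 ratios tested these 2 were so placed and none lay lower, while over all tested genes 13.9% had a ratio to Dmd that was higher in every caffeine heart and 1.35% one that was lower. The permutation p-values of the ratios are not adjusted for the 7 tests, and 0.1 is the smallest that the design allows.

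The ratio of Sspn to Dmd was 1.16, 1.61 and 1.54 in the vehicle hearts and 0.981, 1.07 and 1.36 in the caffeine hearts, and the groups overlapped (exact permutation p = 0.2). The ratio of Utrn to Dmd, the balance of the paralogs, stayed between 0.686 and 0.790 in all 6 hearts (exact permutation p = 0.3). The ratios of Sgcd, Dag1 and Dtna to Dmd differed by 0.13, −0.013 and 0.16 in mean log2 ratio (exact permutation p = 0.4, 0.9 and 0.4). Sspn was then set against its sarcoglycan partners, a choice made after its values were seen and so given without a test. The ratio of Sspn to Sgcb ran from 1.27 to 1.97 in the vehicle hearts and from 0.723 to 0.915 in the caffeine hearts. That of Sspn to Sgca ran from 1.03 to 1.64 and from 0.580 to 0.855, so in both ratios the caffeine hearts lay lower. The ratio of Sgcd to Sgcb, its core partner, ran from 0.178 to 0.226 and from 0.115 to 0.162, also lower in every caffeine heart, while that of Sgcb to Sgca overlapped, from 0.731 to 0.934 and from 0.634 to 1.17. Over all tested genes 43.0% had a ratio to Sgca, and 23.8% a ratio to Sgcb, that was lower in every caffeine heart, so such a placing was common.

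**Figure D3:**
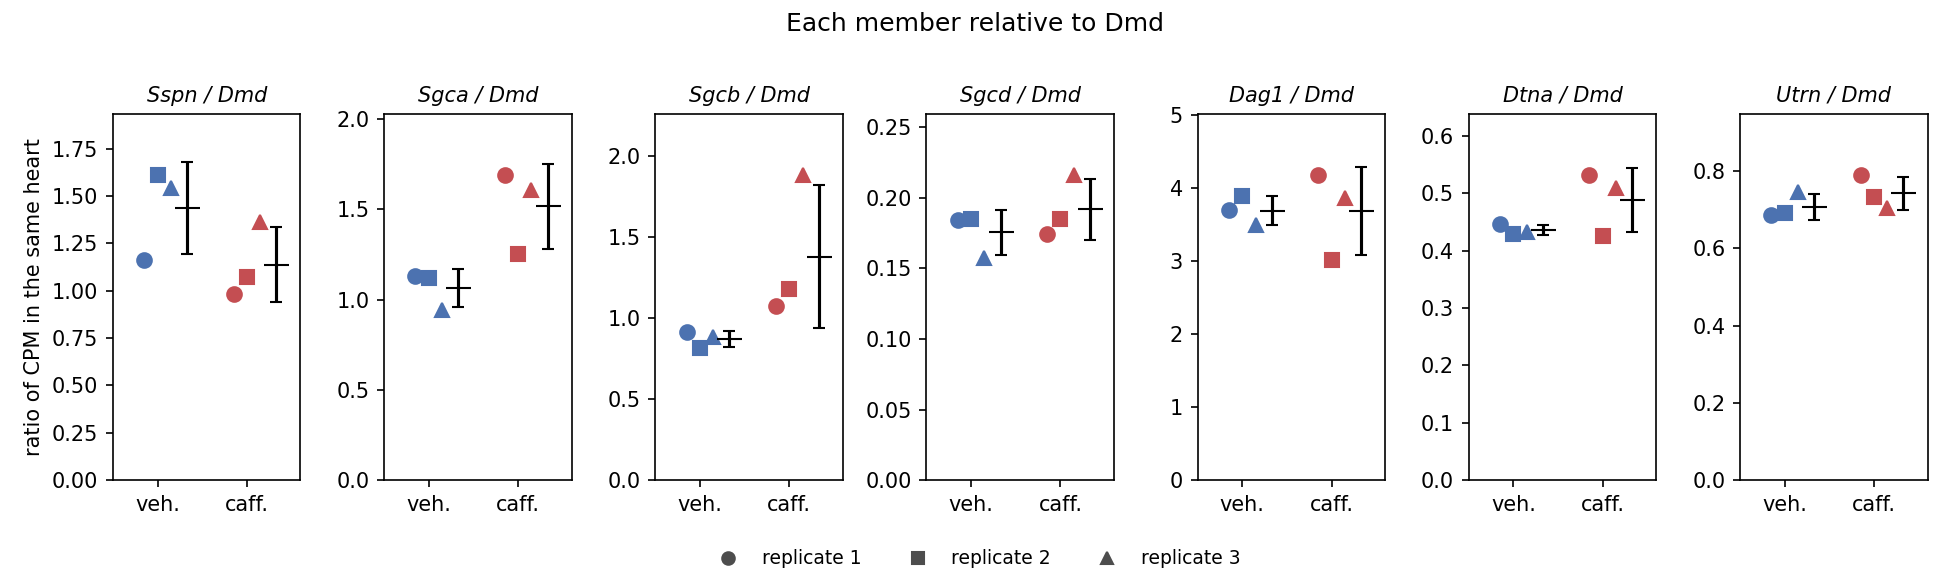
Each panel plots the CPM of 1 member divided by the CPM of Dmd in the same heart, on a linear axis from 0, with vehicle hearts in blue, caffeine hearts in red, marker shapes for the replicate numbers, and the mean with its SD (n = 3) in black. The ratios of Sgca and Sgcb are higher in all 3 caffeine hearts, and that of Utrn lies between 0.686 and 0.790 in every heart.

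Long transcripts were slightly lower in the caffeine group as a whole. The median log2 fold change was 0.052 in the tenth of tested genes with the shortest exons and −0.072 in the tenth with the longest, which holds Dmd, Utrn and Dtna (23801, 17108 and 16930 exon bases), while Sgca (1735) was in the second shortest. With this trend removed in the fit, the log2 fold change was −0.051 for Dmd, 0.0 for Utrn and 0.086 for Dtna. It was 0.31 for Sgca, 0.52 for Sgcb and −0.47 for Sspn. With CPM corrected for the trend, the difference in mean log2 ratio to Dmd went from 0.508 to 0.365 for Sgca. It went from 0.62 to 0.514 for Sgcb and from −0.338 to −0.429 for Sspn. The part of this trend in the differences was not tested further.

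The rest of the complex was counted from a list of 11 genes, of which 6 were tested. Of these 0 passed the thresholds, and the median log2 fold change was 0.074. Sgce, which encodes epsilon-sarcoglycan, the broadly expressed relative of alpha-sarcoglycan, was low and averaged 11.4 CPM in the vehicle group and 12.4 CPM in the caffeine group (log2 fold change 0.12). Sntb1, a syntrophin gene, had the lowest fold change (−0.23) at under 3 CPM in each heart. Sgcz, Sntg1, Sntg2, Nos1 and Drp2 were below the filter, with Sgcz and Sntg2 at 0 in all hearts.

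The sugar chain by which dystroglycan binds laminin is built by a series of enzymes, of which 17 of 18 were tested and 0 passed. Their median log2 fold change was 0.025. The largest positive log2 fold changes were those of Dpm2 (0.53, edgeR quasi-likelihood adjusted p = 0.371) and Dpm1 (0.32), parts of the enzyme that makes the mannose donor, and the most negative those of Pomt2 (−0.18) and Pomgnt1 (−0.16). Of the 10 matrix genes 10 were tested and 0 passed, with a median of 0.063. Lama2, the laminin chain of muscle basement membrane, had 91.5 and 93.7 CPM (log2 fold change 0.033), and the ends of the list were Nid2 (0.23) and Lamb1 (0.10), and Agrn (0.001) and Hspg2 (−0.11).

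Of 15 other membrane and costamere genes, 15 were tested and 0 passed, with a median log2 fold change of −0.040. Dysf, which encodes the membrane repair protein dysferlin, had 145 and 123 CPM (log2 fold change −0.24, edgeR quasi-likelihood adjusted p = 0.446) and was lower in every caffeine heart. Vcl, which encodes vinculin, had a log2 fold change of −0.21. Trim72, another membrane repair gene, had 725 and 833 CPM (0.20, edgeR quasi-likelihood adjusted p = 0.501) and Des, which encodes desmin, a log2 fold change of 0.19, and both lay higher in every caffeine heart. In this list 3 of 15 lay higher (with Flnc) and 3 lower (with Tln2 and Ank3) in every caffeine heart, against the 7.11% and 7.12% of all tested genes. Cav3, the muscle caveolin that binds dystroglycan, had 78.2 and 84.2 CPM (0.11).

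Markers of other cell types differed in part between the groups. The 5 fibroblast markers summed to 676 to 779 CPM in the vehicle hearts and 823 to 967 in the caffeine hearts, and 5 of 5 had a log2 fold change above 0. Dcn made up most of the fibroblast sum, at 505 to 581 CPM in the vehicle hearts and 608 to 767 CPM in the caffeine hearts. The 4 macrophage markers summed to 38.6 to 57.3 and 45.9 to 71.0 CPM, and 4 of 4 were above 0. No marker of these 2 lists passed the edgeR quasi-likelihood test (smallest adjusted p 0.425 for fibroblast and 0.226 for macrophage markers). The macrophage marker Adgre1 (log2 fold change 0.93) passed edgeR's exact test (adjusted p = 0.0415) and its likelihood ratio test (adjusted p = 0.0372). The other markers of these 2 lists passed neither. In the exact test 0.726% of all tested genes passed both thresholds. The 4 endothelial markers (518 to 594 and 528 to 569 CPM), the 4 smooth muscle markers (94.5 to 147 and 95.9 to 114 CPM) and the 6 cardiomyocyte markers (43600 to 52100 and 43300 to 47000 CPM) overlapped. A log2 fold change above 0 was seen in 2 of 4 endothelial, 1 of 4 smooth muscle and 1 of 6 cardiomyocyte markers. The 3 erythroid genes summed to 646 to 1210 and 706 to 1520 CPM, and the atrial, adipocyte and Schwann cell lists to at most 3.52 CPM in a heart. Their part in the values of Sspn, Sgca and Sgcb was not tested.

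Leaving out each heart in turn left 0 of the 8 past the thresholds every time, and the fold changes of Sspn, Dmd, Sgca, Sgcb, Dag1 and Utrn kept their sign. Sspn ran from −0.61 (without caffeine replicate 3) to −0.32 (without caffeine replicate 1), and Sgca from 0.25 (without vehicle replicate 3) to 0.41. The members that did not overlap beside Sgca varied with the heart left out: Sspn (lower) joined it without vehicle replicate 1 and without caffeine replicate 3, and Sgcb (higher) without vehicle replicate 1 and without caffeine replicate 1. Dag1 (lower) did so without vehicle replicate 3 and without caffeine replicate 3, Sgcd (higher) without caffeine replicate 1, and Dmd and Utrn (lower) without caffeine replicate 2. With 5 hearts the groups did not overlap for 11.2% to 13.4% of all tested genes in the higher and 10.8% to 13.3% in the lower direction, so 1 to 3 of the 8 is not far from the share over all genes.

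**Figure D4:**
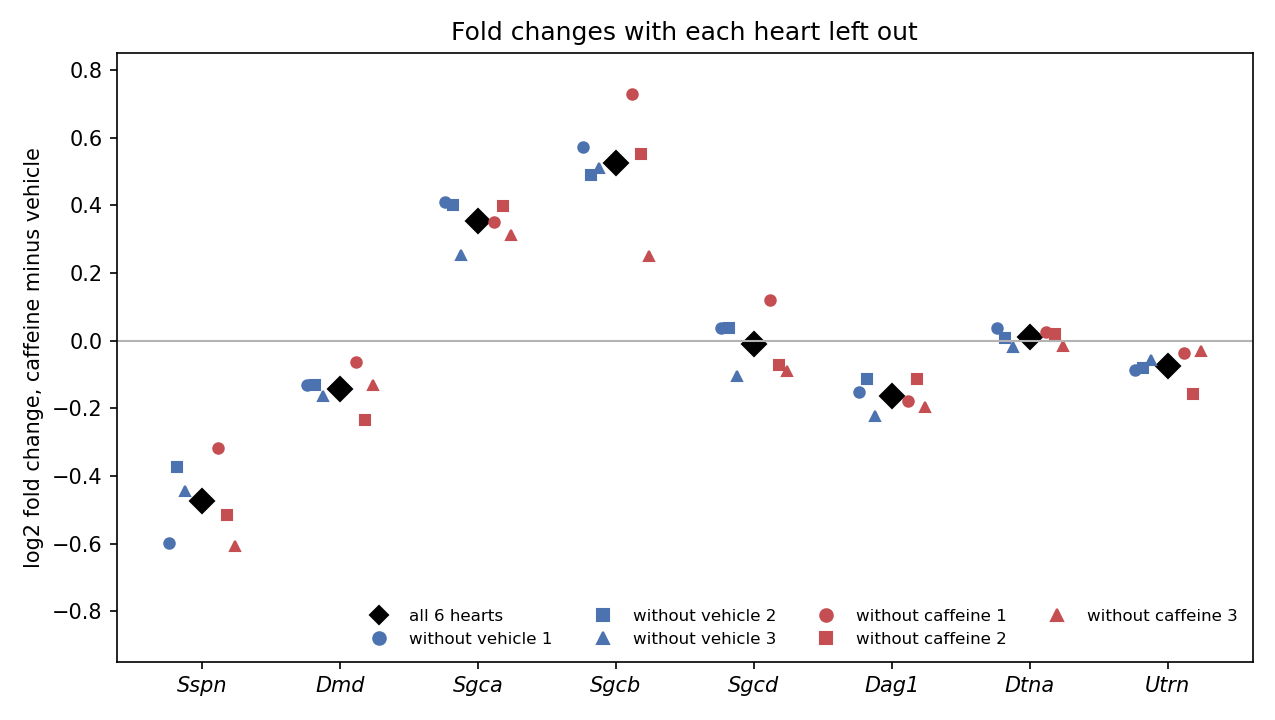
The vertical axis is the log2 fold change (caffeine minus vehicle) of each member, with all 6 hearts as a black diamond and with 1 heart left out as blue (vehicle) or red (caffeine) symbols shaped by replicate number. Sspn stays below 0 and Sgca and Sgcb stay above it, and the widest range is that of Sgcb, from 0.25 to 0.73.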

How the data were processed

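Per the labels and the study's methods, poly(A) RNA of 6 left ventricles was sequenced as single-end reads in a single NextSeq500 run, the reads were cleaned with FastQC and mapped to mm10 (GRCm38) with TopHat2, and HTSeq counted them on Ensembl annotation of that build. Tool versions and the strand setting are not given in the sources used here. The deposited values are raw counts per gene, 1 column per heart, without normalization or pooling.

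From these counts, edgeR 4.0.16 (R 4.3.3) was run over all genes kept by filterByExpr (minimum count 10, minimum total 15; 13092 genes), with TMM factors (0.940 to 1.072) and treatment as the only term in glmQLFit and glmQLFTest. The thresholds, adjusted p below 0.05 over all genes and a fold change above 1.5, are those of the study's methods, which name edgeR but no test. Intervals use the moderated degrees of freedom and a standard error equal to the log2 fold change over the square root of F. The common dispersion was 0.0145. CPM used the same factors, and 3 counts corresponded to 0.284 to 0.420 CPM. Exact permutation tests ran over the 20 labelings, two-sided. SciPy 1.17.1, pandas 2.3.3 and Matplotlib 3.10.9 were used, and limma 3.58.1 and DESeq2 1.42.0 for alternatives. Gene positions and exon lengths came from GENCODE M21. The fits were tested on simulated data.

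The members and lists were chosen with earlier results of these data known. All members were named, and from each of the other lists the 2 highest and the 2 lowest log2 fold changes together with Sgce, Lama2 and Cav3. Some genes that this rule names are not reported here. Alternatives covered other tests, scalings, filters, thinning, length, the replicate block and each heart left out. Replicates of a group differed by more than sampling noise (chi-square per degree of freedom 5.66 to 15.08), so each library counted as a sample. No enrichment test was made.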

Additional observations from a re-analysis of the deposited data

How the results depend on the processing

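The count of members past the thresholds stayed at 0, and that of the 54 other listed genes at 0, under all 15 other settings and with each heart left out. With no filter on low counts Sspn (log2 fold change −0.49, adjusted p = 0.000315) and Sgcb (0.50, adjusted p = 0.000241) passed the edgeR quasi-likelihood test but not the fold change, and the cause was not tested; elsewhere their adjusted p ran upward from 0.0851 for Sspn and from 0.15 for Sgcb. Sgcd changed sign when thinned (0.034), with the length offset (0.021), with block and offset together (0.019) and between −0.104 and 0.119 with hearts left out. Dtna did so with library size only (−0.073), no filter (−0.011), thinned (−0.014) and between −0.018 and 0.037 with hearts left out. Both lay near 0 throughout. Members whose groups did not overlap numbered 3 with library size only, where Dmd and Dag1 lay lower (as did 14.0% of all tested genes, with 3.06% higher), and 1 to 3 with hearts left out (10.8% to 13.4% of all tested genes in a direction). With the other members summed in place of Dmd, the difference for Utrn was −0.040. With the longest transcript as length, levels became 10.8 (Dmd), 6.64 (Sgcd), 105 (Dag1), 11.8 (Dtna) and 9.42 (Utrn) CPM per kilobase.

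With the replicate number as a block, 0 members passed in the paired fit, and Sspn had a log2 fold change of −0.49 (edgeR quasi-likelihood adjusted p = 0.0851). The numbers were not found to pair the hearts, since deviations of same-numbered hearts correlated at 0.045, −0.030 and −0.038. Over all genes the block moved the calls from 11 higher and 3 lower to 29 and 11. Other tests gave 62 and 33 (edgeR exact), 63 and 38 (edgeR likelihood ratio) and 39 and 28 (DESeq2), and no filter 145 and 95. The exact permutation test over 3 hearts against 3 cannot go below 0.1, and 6 of the other listed genes had too few counts to be tested.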

Other observations

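Sspnos, the gene antisense to Sspn, was looked at after the values of Sspn had been seen, so its order against Sspn is given without a test. It had 24, 3 and 7 counts in the vehicle hearts (2.34, 0.284 and 0.709 CPM) and 24, 26 and 18 counts in the caffeine hearts (3.36, 2.93 and 2.11 CPM). The 6 hearts ordered from the lowest to the highest Sspnos were in the same order from the highest to the lowest Sspn. The ends were vehicle replicate 2 (0.284 CPM of Sspnos and 276 CPM of Sspn) and caffeine replicate 1 (3.36 and 134 CPM). Vehicle replicate 1 and the caffeine hearts had only 18 to 26 counts of Sspnos, so their order among themselves rests on few reads. How many of all tested genes show such an order against Sspn was not counted. The strand setting is not given, so reads from the shared bases cannot be assigned to either gene. Vehicle replicate 1, the vehicle heart with the lowest Sspn, was the vehicle heart with the most Sspnos. The log2 fold change of Sspnos was 1.32 (standard error 0.539, edgeR quasi-likelihood adjusted p = 0.514), its groups overlapped, and it rests on 26 counts or fewer in each heart.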
